A study of Mus musculus with 4 samples.

Results

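Runx2 occupancy was examined at 9 genes of the unfolded protein response and of the Atf4 branch of the stress response, namely Ern1, Eif2ak3, Atf6, Hspa5, Xbp1, Atf4, Ddit3, Creb3l1 and Creb3l2, out of 22372 protein-coding genes. The rule that assigns peaks to them uses gene positions and no peak scores. Every Runx2 peak that overlapped by at least 1 bp the gene body widened by 20 kb on each side was taken as a peak of the locus, which gave 27 of the 25457 day 0 peaks, 59 of the 60596 day 9 peaks and 44 of the 40330 day 28 peaks. Where peaks of different days shared at least 1 bp they were merged, which left 59 regions at these loci out of 67703 in the genome.

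The cells were MC3T3-E1 subclone 4, a preosteoblast line from mouse calvaria labelled with strain C57BL/6, profiled by chromatin immunoprecipitation and sequencing (ChIP-Seq) with the Runx2 antibody M70. The groups were proliferating cells at day 0, matrix-depositing cells at day 9 and mineralizing cells at day 28. Differentiation was driven by ascorbic acid and beta-glycerophosphate, and the cells carried no other alteration by the labels. Reads of 2 biological replicates were pooled at each time point before peaks were called, so there was 1 list per stage, no spread between replicates and no test between stages. A single clonal line was used, and peaks report where Runx2 was bound, not whether a gene was expressed, so the cell type could not be checked against the expression of its markers.

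The unfolded protein response adjusts the folding capacity of the endoplasmic reticulum (ER) to the load of secretory protein. Ern1 (IRE1), Eif2ak3 (PERK) and Atf6 sense unfolded protein in the ER, and their signals act through the transcription factors Xbp1, Atf4 and the cleaved form of Atf6. Osteoblasts secrete large amounts of collagen, and Atf4, Xbp1 and the related membrane-bound factor Creb3l1 (OASIS) are known for roles in bone formation.

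The sequences below carry the features to which the results return, read from the mm9 (NCBIM37) genome on the strand of the gene. In the first and the second, capitals mark the ER stress response element, searched as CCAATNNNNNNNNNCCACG on both strands, through which Atf6 is known to act. In the others, capitals mark the Runx core TGTGGT or its reverse complement ACCACA within 50 bp of the centre of a day 9 peak. The Creb3l1 region is shown because it was among the highest-scoring peaks of day 9 and held no such core there, and the Creb3l2 region because its cores lay in a run of TG repeats.
Hspa5 promoter, chr2:34627362-34627611, plus strand: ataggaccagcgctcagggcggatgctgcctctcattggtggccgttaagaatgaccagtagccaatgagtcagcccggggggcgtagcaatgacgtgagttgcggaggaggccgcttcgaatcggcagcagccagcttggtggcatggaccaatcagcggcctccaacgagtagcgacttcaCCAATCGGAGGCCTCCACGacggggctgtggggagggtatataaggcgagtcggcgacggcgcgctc
Xbp1 element, chr11:5420904-5420932, plus strand: accggCCAATCGCGGACGGCCACGaccct
Atf6 upstream region, chr1:172798839-172798939, minus strand: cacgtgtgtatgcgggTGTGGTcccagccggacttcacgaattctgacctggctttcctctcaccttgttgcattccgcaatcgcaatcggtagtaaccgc
Atf6 intron region, chr1:172754689-172754789, minus strand: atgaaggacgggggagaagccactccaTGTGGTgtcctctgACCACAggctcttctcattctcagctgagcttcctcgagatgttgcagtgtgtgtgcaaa
Atf6 downstream region, chr1:172631784-172631884, minus strand: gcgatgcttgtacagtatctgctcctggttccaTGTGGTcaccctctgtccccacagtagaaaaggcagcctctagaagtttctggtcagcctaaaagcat
Creb3l1 intron region, chr2:91838351-91838451, minus strand: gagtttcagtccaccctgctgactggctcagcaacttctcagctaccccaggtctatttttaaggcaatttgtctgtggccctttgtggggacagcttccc
Creb3l2 downstream region, chr6:37274199-37274299, minus strand: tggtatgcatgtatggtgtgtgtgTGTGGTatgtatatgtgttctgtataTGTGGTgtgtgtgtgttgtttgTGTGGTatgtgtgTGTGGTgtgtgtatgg

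Peaks lay at all 9 loci on all 3 days. Of all protein-coding genes, 64.9% had a peak in the widened gene body on day 0, 76.9% on day 9 and 71.2% on day 28. In the order of the days, the median locus held 2, 5 and 4 peaks, beside 1, 2 and 2 over all genes. The 9 genes were also longer, with a median of 42.2 kb against 15.4 kb, and a longer window can hold more peaks. Over the promoter, taken as 1000 bp upstream to 150 bp downstream of any coding transcript start, 8 of 9 genes had a peak at day 0 and all 9 had one at days 9 and 28. Of all genes, 42.7%, 51.6% and 50.1% had a promoter peak on days 0, 9 and 28. A promoter peak was present on all 3 days at 8 of the 9 genes and at 41.4% of all genes, and the gene that lacked one at day 0 was Creb3l1.

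The strength of a peak is given as its score, which is 10 times the −log10 of the peak-calling p-value, and as its percentile among all peaks of the same day, with ties at mid-rank. Scores grow with the number of reads and are not comparable between days. Scores of 3100 and above were treated as tied, because 192, 2699 and 1468 peaks on days 0, 9 and 28 were listed at exactly 3100. Over the genes with a promoter peak, the highest-scoring promoter peak of the 9 genes had median percentiles of 67.1, 91.6 and 89.7 on days 0, 9 and 28, beside 61.9, 82.3 and 79.0 for all genes. These peaks were also wide, with medians of 1681, 1235 and 1449 bp beside 1084, 893 and 1096 bp.

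**Figure D1:**
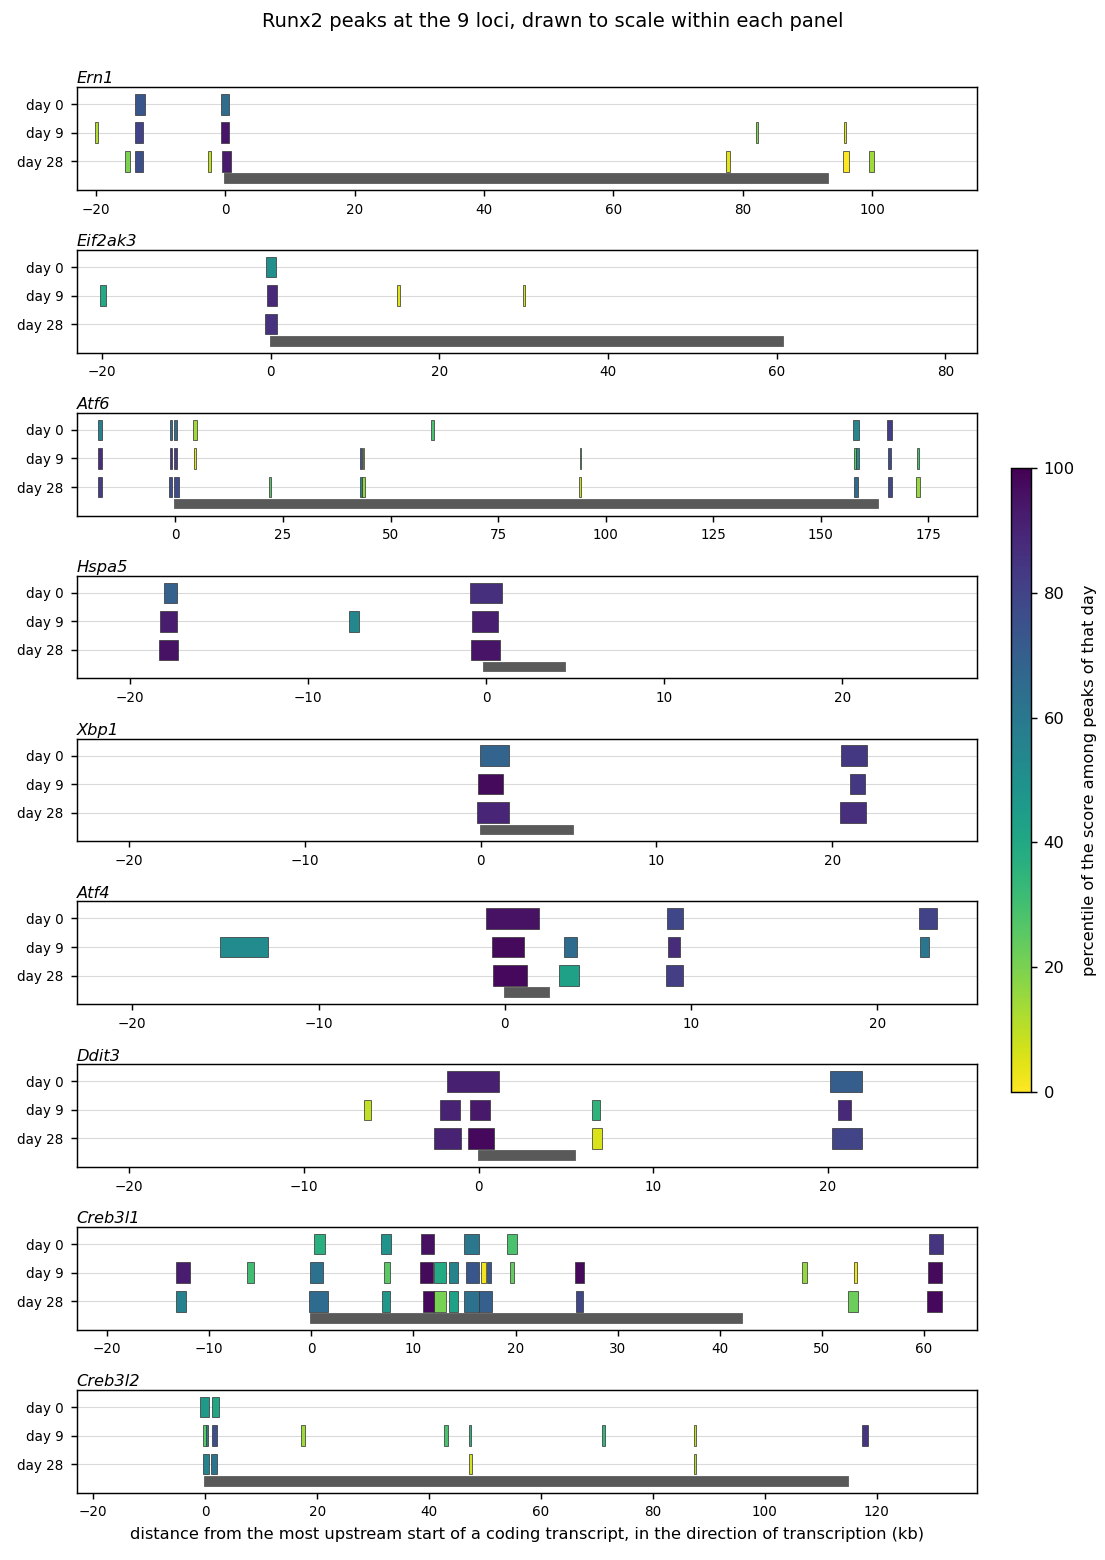
Runx2 peaks at each locus, with distance from the most upstream coding start in kb on the horizontal axis and 1 row per day. Boxes are peaks to scale, darker boxes have a higher score percentile within their day, and the grey bar is the gene body; dark boxes stood at the start of every gene except Creb3l1 and Creb3l2 at days 9 and 28, while the darkest boxes inside a gene body away from its start were those in introns 1 and 2 of Creb3l1.

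Of the 3 sensors, Ern1 encodes the kinase and endoribonuclease that splices Xbp1 mRNA, and lies at chr11:106255964-106349166 on the minus strand. Its promoter peak had a score of 397 (percentile 65.0) at day 0, 2833.47 (94.5) at day 9 and 2265.63 (92.6) at day 28, centred within 139 bp of the start on each day. The promoter peak stood at all stages, and its percentile was lowest at day 0, as it was at 86.2% of all genes with promoter peaks on all 3 days. A region 13201 bp upstream of the start, in no protein-coding gene, was also bound on all 3 days, with scores of 500.5, 980.53 and 914.64. Of its 9 regions, 2 were present at all days, 2 at day 9 alone, 4 at day 28 alone and 1 at days 9 and 28, and Ern1 held 4 of the 5 regions seen at day 28 alone across the 9 loci. These 4 were weak, with scores between 108.35 and 148.02, near the lowest score of 100 that the lists retained. One of them lay over exon 13 of Ern1 and another over a start of the neighbouring gene Icam2.

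Eif2ak3 encodes the kinase that phosphorylates eIF2alpha and so lowers translation while raising that of Atf4, and lies at chr6:70794509-70855239 on the plus strand. At its promoter the peak scored 271.32 (percentile 50.0), 1699.4 (88.7) and 1469.2 (85.9) on days 0, 9 and 28. It was the only peak of the locus at days 0 and 28. At day 9, 3 further regions were listed, 19884 bp upstream of the start and at 15204 and 30073 bp inside intron 2. The upstream one had a score of 200.38, and the intronic ones had 106.6 and 108.99. None of these 3 would remain if the day 9 list were limited to its 25457 highest-scoring peaks, as many as at day 0, whose lowest score was 346.09.

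Atf6 encodes a membrane-bound factor that is cut in the Golgi to release its DNA-binding part, and lies at chr1:172634588-172797902 on the minus strand. Its 203 kb window was the widest of the 9 and held 7, 11 and 10 peaks by day, which is 3.44, 5.41 and 4.92 per 100 kb. The promoter was bound through separate regions on all 3 days. The one at the start had scores of 406.36 (percentile 65.8), 1102.89 (82.2) and 940.43 (76.7). The one centred 1057 bp upstream had 396.44 (64.9), 1283.51 (84.7) and 960.41 (77.2). The upstream region had TGTGGT within 50 bp of its centre on each day, the only one of the 59 regions for which this held on all 3 days. The region at the start had 1 TGTGGT core, 193 to 399 bp from its centre depending on the day.

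Beyond its promoter, Atf6 had regions with Runx cores at their centres in the gene and downstream of it. The region of intron 7, 43149 bp from the start, was absent from the day 0 list and had scores of 706.82 (percentile 74.4) at day 9 and 374.33 (53.6) at day 28, with the nearest of its 2 cores 7 bp from the centre on each day. In the sequence printed above these cores lie in opposite orientation, 8 bases apart. The region 166001 bp from the start, past the end of the gene, was bound on all 3 days with scores of 666.38 (82.1), 815.24 (77.0) and 1020.71 (78.7), and held 3 or 4 cores per peak. The last exon, exon 16, was also bound on all days, with highest scores of 294.93, 282.63 and 595.92. The one region of the 9 loci seen at day 0 alone lay in intron 9 of Atf6, with a score of 171.78 (28.8).

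Hspa5 encodes BiP, the chief Hsp70 chaperone of the ER, and lies at chr2:34627490-34632051 on the plus strand. The promoter peak of Hspa5 ranked high at every stage, with scores of 791.62 (percentile 86.3), 2131.64 (91.6) and 2685.81 (94.6) on days 0, 9 and 28. The peak centre lay within 48 bp of the start on each day. The peaks spanned the ER stress response element, which occupies positions -67 to -49 from the start at 34627612. The only TGTGGT in the peaks lay 262 to 295 bp from their centres. The other region present on all days, 17834 bp upstream, lay over the start of the neighbouring gene Gapvd1. A day 9 region 7406 bp upstream, with a score of 298.01, had only 10 different 4-base words in the 101 bases at its centre, against a median of 73 over all day 9 peaks.

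Xbp1 encodes the factor activated by Ern1 and lies at chr11:5420662-5425896 on the plus strand. It was the only gene of the 9 with the same number of peaks, 2, on each day. Its promoter peak had a score of 435.04 (percentile 68.4) at day 0, 3143.05 (97.6) at day 9 and 1849.59 (89.7) at day 28, so it was among the tied top peaks of day 9 alone. The peak reached from the start into intron 1 on each day. It spanned an exact ER stress response element at positions -61 to -43 from the coding transcript start at 5420970, the third of the 4 starts of Xbp1. The same element lies 247 to 265 bp downstream of the most upstream start. The peaks held 1 TGTGGT, 1 bp from the peak centre at day 0 but 226 and 98 bp from it at days 9 and 28, because the peak borders differed. The second region, 21220 bp from the start, lay over the start of Ccdc117.

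Atf4 encodes the transcription factor raised by eIF2alpha phosphorylation and required for full amino acid import and collagen synthesis in osteoblasts, and lies at chr15:80085614-80087970 on the plus strand. Its promoter peak was the highest-scoring of the day 0 promoter peaks of the 9 genes, at 1519.56 (percentile 95.7), and was listed at 3100 at days 9 (97.6) and 28 (98.0). The peak was 2844 bp wide at day 0 and held 2 TGTGGT cores, with the nearest 140, 67 and 40 bp from the centre on days 0, 9 and 28. A region just past the gene, 3466 bp from the start, was listed at days 9 and 28 alone, with scores of 458.92 (65.3) and 266.82 (42.9). A region 22730 bp from the start was listed at days 0 and 9 inside the window, with scores of 622.98 and 384.7, and its day 28 peak lay just outside the window. The region 9108 bp from the start lay over the start of Rps19bp1. The widest peak of the locus at day 9, 2607 bp, sat 14015 bp upstream of the start inside Smcr7l on a tandem repeat with 34 different 4-base words at its centre.

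Ddit3 encodes CHOP, a factor of the later response to ER stress, and lies at chr10:126727830-126733344 on the plus strand. Over its start the peak scored 1040.39 (percentile 91.4), 2586.28 (93.6) and 3201.36 (98.0) on days 0, 9 and 28. At day 0 a single peak of 2976 bp covered the starts of Ddit3 and of its divergent neighbour Mbd6. At days 9 and 28 the same stretch was listed as separate peaks, one over each start, with gaps of 568 and 433 bp. The peak at the Mbd6 start had scores of 1947.53 and 1944.38, and the peak at the Ddit3 start held no TGTGGT. All 4 regions of the locus lay over a promoter of another gene, Mbd6 or Mars, so peaks in this gene-dense window cannot be assigned to Ddit3 alone.

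Creb3l1 encodes OASIS, a membrane-bound factor of the Atf6 type known in osteoblasts for activating Col1a1, and lies at chr2:91822485-91864659 on the minus strand. It differed from the genes above in where its peaks were. It had 6, 15 and 11 peaks by day, or 7.30, 18.3 and 13.4 per 100 kb, and these counts stood at percentile 96.2, 97.4 and 97.9 of all protein-coding genes. Such percentiles take no account of window length, and the counts of Atf6, with its wider window, stood at 97.7, 93.9 and 97.2. Its promoter was weakly marked, with no promoter peak at day 0 and scores of 408.2 (percentile 62.5) at day 9 and 576.28 (65.3) at day 28. At day 0 a peak with a score of 201.36 was centred in intron 1, and its border nearest the start was 246 bp downstream of it, outside the promoter window.

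The strong peaks of Creb3l1 were in its introns and upstream. In intron 1, a region 11920 bp from the start was bound on all 3 days, with highest scores of 1542.33 (percentile 95.8), 3100 (97.6) and 3100 (98.0). A region in intron 2, 26258 bp from the start at chr2:91837990-91838813, was absent from the day 0 list, stood at 3100 (97.6) at day 9 and at 1022.77 (78.7) at day 28. A region 12599 bp upstream of the start, in no protein-coding gene, followed the same pattern of days, with 2212.03 (92.1) at day 9 and 400.79 (55.7) at day 28. These were the strongest of the 13 regions that the 9 loci held at days 9 and 28 but not at day 0, and the only ones above percentile 75 of a list. None of the printed centre of the intron 2 region matched TGTGGT, although the peaks held 1 core each. In the intron 1 region of highest score, the strongest peak of each day held 2 cores. The nearest lay 23, 165 and 38 bp from the centre on days 0, 9 and 28, so within 50 bp of it at days 0 and 28 but not at day 9. The region 61068 bp from the start lay over a start of Dgkz, with scores of 736.98, 3100 and 3200.32.

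Creb3l2 encodes BBF2H7, a relative of Creb3l1 known for raising the secretory machinery in cartilage, and lies at chr6:37277255-37392146 on the minus strand. Its promoter peak had a score of 245.99 (percentile 45.7) at day 0, 146.03 (25.2) at day 9 and 393.19 (55.1) at day 28, below the median of all genes with a promoter peak on each day. It was the only one of the 8 genes with promoter peaks at all stages whose day 0 percentile was not the lowest of the 3. At day 9 the region was split into the promoter peak and a stronger peak, with a score of 342.35 (57.8), that lay downstream of the promoter window. A region 1809 bp from the start, in intron 1, outranked the promoter peak at days 9 and 28, with scores of 222.43 (41.1), 781.4 (76.3) and 507.23 (61.9). The other 6 regions were absent from day 0, and 4 of the 8 regions were listed at day 9 alone. The strongest of those, downstream of the gene, had a score of 1325.4 (85.1) and 34 TGTGGT cores in 1007 bp, in the TG repeat printed above, with 26 different 4-base words at its centre.

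**Figure D2:**
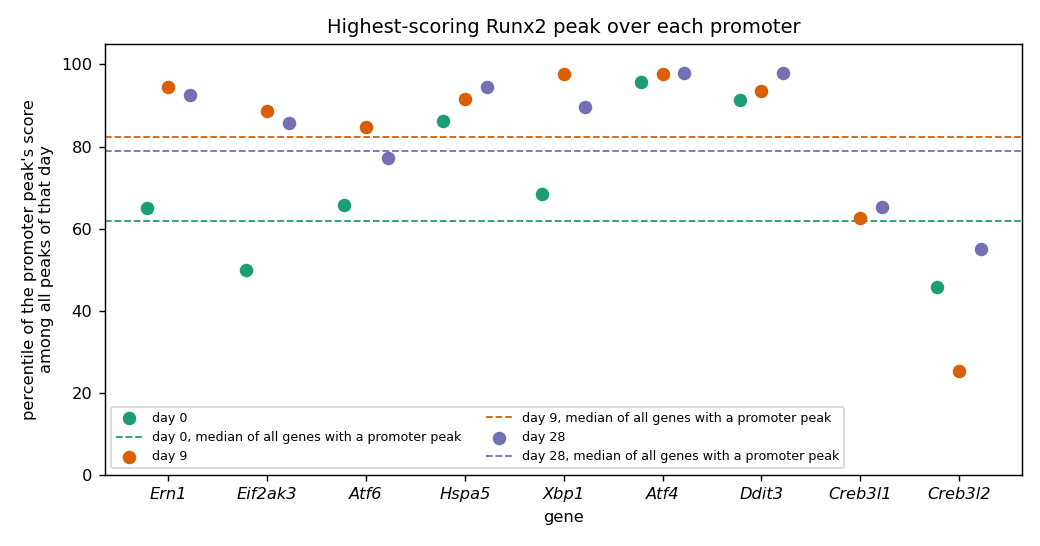
Percentile of the highest-scoring promoter peak among all peaks of its day, for each gene (points, 1 per day), with dashed lines at the median over all genes with a promoter peak. Atf4, Ddit3, Hspa5, Xbp1 and Ern1 stood above the median line of each day, Creb3l2 stood below it at all stages, and Creb3l1 had no day 0 point.

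By this measure the order of promoter peaks at day 0 was Atf4, Ddit3, Hspa5, Xbp1, Atf6, Ern1, Eif2ak3 and Creb3l2. At day 9, Atf4 and Xbp1 were tied at the top, followed by Ern1, Ddit3, Hspa5, Eif2ak3, Atf6, Creb3l1 and Creb3l2. At day 28 the tied top genes were Atf4 and Ddit3, followed by Hspa5, Ern1, Xbp1, Eif2ak3, Atf6, Creb3l1 and Creb3l2. With 1 list per day there was no spread against which neighbours in these orders could be told apart. The percentile was higher at day 28 than at day 9 for Ddit3, Hspa5, Creb3l1 and Creb3l2, and lower for Xbp1, Ern1, Eif2ak3 and Atf6, while Atf4 was tied at the top of both lists. Over the percentiles of the 3 days, the genes nearest to Atf4 were Hnrnpa0 and Cited2, with 624 of 9271 compared genes within 5 percentile points. Because Atf4 was tied at days 9 and 28, only day 0 could separate it from other genes tied on both days. The nearest were Mob1b and Mdn1 for Atf6, Ppp3cc and Enoph1 for Ern1, and Sox4 and Zfp687 for Eif2ak3. For Ddit3 they were Nacc1 and Trmt1, and for Hspa5 they were Serbp1 and Coro1c. Within 5 points lay 161 genes for Atf6, 171 for Ern1, 140 for Eif2ak3, 438 for Ddit3 and 267 for Hspa5. For Creb3l2 no gene lay within 5 points, and the nearest, Zfp58, was 7.85 points away.

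Grouped by the days with a peak, 23 of the 59 regions were bound on all 3 days, 13 at days 9 and 28, 14 at day 9 alone, 5 at day 28 alone, 3 at days 0 and 9, 1 at day 0 alone and 0 at days 0 and 28. Of the 67703 regions of the genome, 18584, 14319, 23329, 5141, 1146, 3792 and 1392 were of these kinds, in the same order. The 23 regions are 39.0% of the 59, with an exact 95% interval from 26.5% to 52.6% that covers counting error only, and 27.4% of all regions of the genome were bound on all days. Over a promoter of any gene lay 20 of the 59 regions, beside 12208 of the 67703 in the genome. The part of promoters in the difference was not tested. Of the 20 regions over a promoter of any gene 16 were bound on all days, or 80.0%, beside 71.3% of all promoter regions, and of the 39 over none 7 were, or 17.9%, beside 17.8%. The Atf4 region whose day 28 peak lay outside the window is not among these 7, and with it 8 of the 39, or 20.5%, were bound on all days. The 7 regions outside promoters that were bound at all stages were in Creb3l1 (3), Atf6 (2), Ern1 (1) and Creb3l2 (1). All 10 merged regions over a promoter of one of the 9 genes held a peak on all days, with Atf6 contributing 2. In the one at Creb3l1, the day 0 peak itself lay outside the promoter window.

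**Figure D3:**
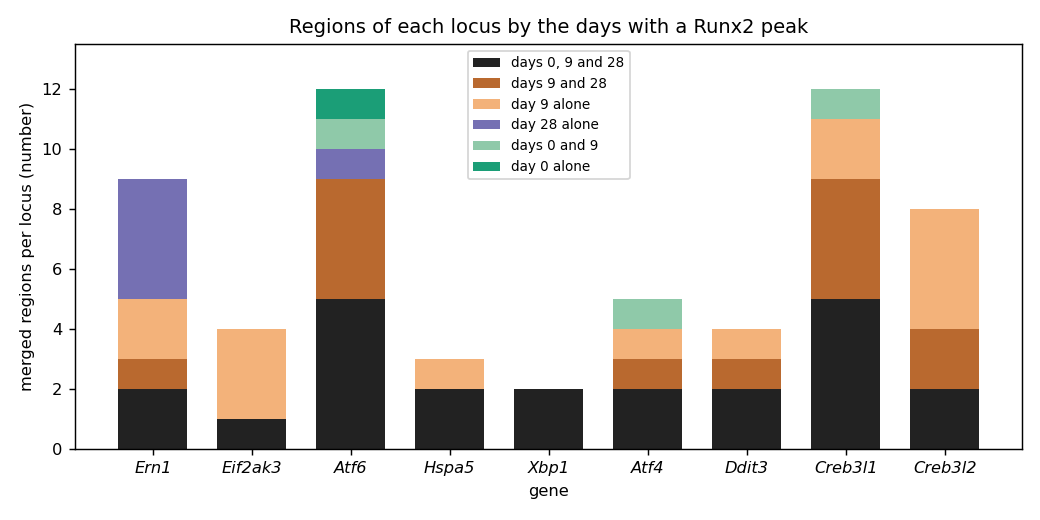
Number of merged regions per locus (vertical axis), stacked by the days on which they held a Runx2 peak. Both regions of Xbp1 were bound on all 3 days, Ern1 had 4 of the 5 regions of day 28 alone, and Creb3l2 had the most regions of day 9 alone, with 4.

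The regions of a single stage held peaks of low percentile, as they did in the genome. The highest percentile within a region had a median of 23.8 for the 14 regions of day 9 alone and 14.3 for the 5 of day 28 alone, and the same medians over all regions of the genome of these kinds were 26.6 and 17.5. For the 7 regions bound on all days outside promoters the median was 76.3, beside 78.9 in the genome, and such regions take their highest value from at least 3 peaks. The 1 region of day 9 alone above percentile 75 was the Creb3l2 repeat, which was also the only one of the 14 with a score above the 346.09 that limits the 25457 top peaks of that day. Of the 14 regions, 5 had fewer than 50 different 4-base words at the centre, and 31.2% of all 23329 day 9 alone regions of the genome did. Of all day 9 peaks 14.6% had such a centre, against 1.29% at day 0 and 3.64% at day 28. The part of repeats in these peaks was not tested.

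TGTGGT lay within 50 bp of the peak centre in 7 of the 27 day 0 peaks of the loci, in 6 of the 59 day 9 peaks and in 9 of the 44 day 28 peaks. As shares these are 25.9% (exact 95% interval 11.1 to 46.3), 10.2% (3.82 to 20.8) and 20.5% (9.80 to 35.3), which cover counting error only. Over all peaks of each list the shares were 16.0%, 25.3% and 20.9%, so the interval of the loci lay below the list's share at day 9 and held it at days 0 and 28. Peaks of 1 locus and of overlapping regions share sequence and are not independent. By region, 14 of 59 had the core at a centre on at least 1 day, among them 4 of the 7 bound on all days outside promoters. Over all regions of the genome the shares were 31.0% and, for those bound on all days outside promoters, 43.4%. The promoter peaks of Ern1 and Eif2ak3 held no TGTGGT at any position on any day, and those of Atf4, Atf6, Xbp1 and Hspa5 held at least 1 on every day. In the 250 bases upstream of the most upstream coding start, TGTGGT was present at Atf6 alone and at 12.7% of all 22372 promoters. The ER stress response element was present there at Hspa5 alone and at 0.103% of promoters. The core of the unfolded protein response element, TGACGTGG, and the cAMP response element TGACGTCA were at none of the 9 and at 0.568% and 1.94% of promoters.

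The other genes of the pathway were listed by name, and 74 of 75 were matched to the annotation. A promoter peak was present at 63 of 74 on day 0, at 69 on day 9 and at 69 on day 28, and on all 3 days at 63 or 85.1%, beside 41.4% of all genes. The tie at a day 9 score of 3100 or above is shared by many genes. It stood at mid-rank percentile 93.1 among the highest promoter peaks of the 11539 genes with one at day 9. Among ER chaperones and foldases 15 of 16 had promoter peaks on all days, and 6 were tied at a day 9 score of 3100 or above, among them Pdia3 (3106.37), Calr (3100) and Creld2 (3100). Pdia3 and Calr serve the folding of glycoproteins, and the sixteenth gene, Ero1lb, had a promoter peak at day 28 alone. In the secretory transport of collagen all 12 matched genes had promoter peaks on all days, and 5 were tied at 3100 at day 9, among them Ctage5, Kdelr3 and Sar1a.

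In ER-associated degradation 11 of 13 genes had promoter peaks on all days, with Derl2, Herpud1 and Vcp at 3100 at day 9. Os9 lacked a promoter peak at day 0, and Derl3 had none on any day. Of the eIF2alpha kinases, phosphatases and Atf4 program 15 of 18 had promoter peaks on all days, and 4 were tied at 3100 at day 9, among them Cebpb, Cebpg and Ddit4. The cystine transporter gene Slc7a11 had no promoter peak on any day, and Eif2ak2 and Trib3 had none at day 0. The sensors and their activating proteins were the list with the smallest share, with 5 of 8 on all days. Creb3, Mbtps1, which encodes the site-1 protease that cuts Atf6, and Traf2, an adaptor of Ern1, led it with day 9 scores of 3100, 3100 and 2801.09, whereas Ern2 and Creb3l4 had no promoter peak on any day. Of the Atf4 partners in osteoblasts 5 of 7 had promoter peaks on all days, and Rps6ka3 and Trps1 had none at day 0. A peak in the widened gene body was present at 71, 73 and 72 of the 74 genes on days 0, 9 and 28. Of all protein-coding genes, 64.9%, 76.9% and 71.2% had one on these days.

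**Figure D4:**
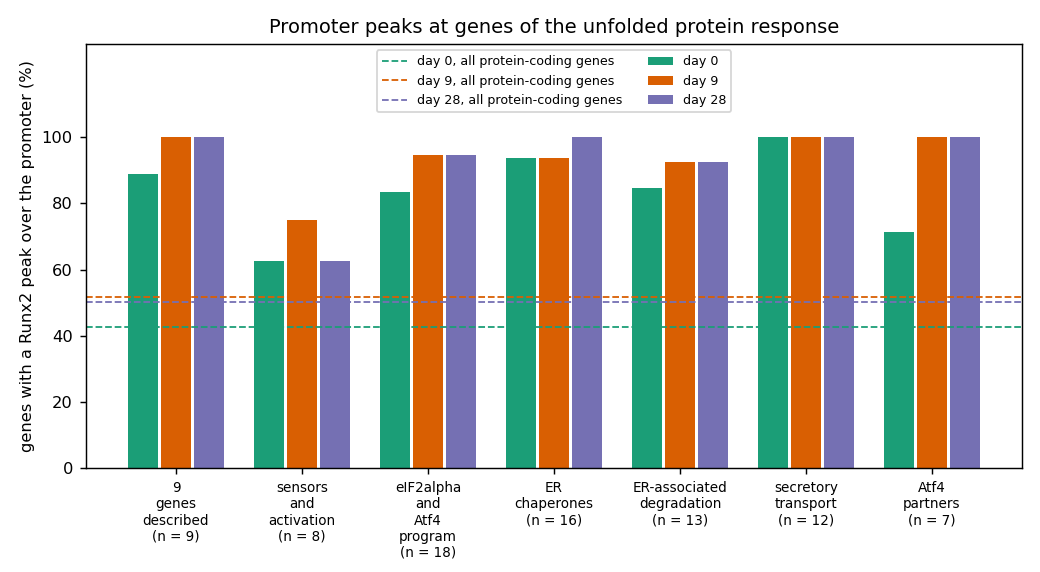
Share of the genes of each list with a Runx2 peak over the promoter (vertical axis, percent), by day, with dashed lines at the share of all protein-coding genes. Every bar stood above the line of its day, and the sensors and their activating proteins, with 5, 6 and 5 of 8 genes, stood closest to it.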

How the data were processed

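Runx2 ChIP-Seq of MC3T3-E1 cells was analysed at days 0, 9 and 28. Per the labels and the study's methods, the authors aligned reads to mm9 with Bowtie 0.12.8 after CASAVA 1.6, pooled 2 replicates per day, and called peaks with MACS 1.4.1 against pooled day 9 input, retaining p below 1e-10. The deposited score is 10 times −log10 of the peak's p-value. The lists hold no summits or read counts, so depth is unknown from them and the input was not analysed here.

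Peaks were intersected with GENCODE M1 protein-coding genes on NCBIM37 in Python 3.11.15, and peak ends all lay inside that assembly. The code was tested on simulated intervals. Percentiles rank scores within a day. Exact binomial 95% intervals cover counting error only. No test was run, because each day has 1 list. Alternatives were other p thresholds, windows, promoter and overlap definitions, lists of equal length and other motif searches. Named genes were the 9 members, their neighbours with a start under a peak, the up to 3 genes of each list with the highest day 9 promoter score (ties in alphabetical order), and the 2 genes nearest each member in percentile; genes without a promoter peak were named after their values were seen. The genes nearest Xbp1 and the leading genes of the list of Atf4 partners are not reported here. Members and lists were chosen with earlier results of these data known. Synonyms came from RefSeq (GRCm38); Mia3 had no match and Vimp matched as H47. The count of 4-base words was added after seeing the data.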

Additional observations from a re-analysis of the deposited data

How the results depend on the processing

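The counts below moved by more than 1.5 times. With p below 1e-20 the loci held 35 peaks at day 9 in place of 59. With p below 1e-50 they held 10, 25 and 24 peaks on days 0, 9 and 28, and 3 of 9 genes kept a promoter peak at day 0, namely Atf4, Ddit3 and Hspa5, beside 14.5% of all genes. With no flank the loci held 17, 34 and 25 peaks, and with 50 kb they held 45, 102 and 70. With each list limited to its 25457 top peaks, the loci held 28 peaks at day 9, close to the 27 of day 0. With TGYGGT, 10 day 9 peaks (16.9%) had the motif at the centre, beside 28.5% of all day 9 peaks. Within 100 bp of the centre, 13 peaks at day 9 (22.0%) and 14 at day 28 (31.8%) had TGTGGT, beside 37.4% and 33.1% of all peaks. Over the whole peak 21, 33 and 30 peaks (77.8%, 55.9% and 68.2%) had it on days 0, 9 and 28, beside 61.4%, 58.7% and 61.6% of all peaks. The other 60 counts stayed within 1.5 times. The share of regions bound on all days did move: it was 20 of 33 (60.6%, genome 37.7%) with lists of equal length and 22 of 33 (66.7%, genome 30.5%) at 1e-20, in place of 23 of 59. Creb3l2 lost its day 9 promoter peak in both, and Creb3l1 gained one at day 0 with a promoter of 500 bp on each side. With the peak centre required in the promoter, Creb3l1 lost its peak at day 9, and Atf6 and Creb3l1 lost theirs at day 28. That left 7 of 9 genes at day 28, beside 39.2% of all genes. With p below 1e-50, Creb3l1 and Creb3l2 had no promoter peak at day 9, and Creb3l2 had none at day 28. No paired analysis was possible because each day has 1 pooled list, and no replicate could be left out. The lists give no read depth. The study itself reports the most raw reads at day 0 and the fewest at day 28. The part of depth in the number of peaks per day was not tested.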
